A study of Mus musculus with 2 samples.

Results

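The miR-322, miR-503 and miR-351 cluster of the X chromosome was measured in the stomach of mice at embryonic day 15.5. Its members are the 6 miRNA genes Mir322, Mir503, Mir351, Mir542, Mir450a-2 and Mir450b, taken by gene identifier from the 1973 miRNA genes of the count tables. GENCODE names Mir450a-2 as Mir450-2; it was matched through a RefSeq synonym. Small RNA under 30 nt was sequenced from 2 pools of healthy B6NCrl embryos of mixed sex, with 78 embryos in replicate 1 and 62 in replicate 2. The labels give no allele or treatment, and the pools form 1 group, so only genes and pools can be compared. Whole stomach mixes cell types, so fewer cells of a type and less RNA per cell cannot be told apart.

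miRNAs of a cluster can be cut from 1 primary transcript, and each hairpin can give a mature miRNA from either arm. A mature miRNA recognises its targets mainly through its seed, bases 2 to 8 from the 5′ end. miR-322, the mouse counterpart of human miR-424, and miR-503 carry seeds of the miR-15 and miR-16 type, known for repressing cyclins and other cell cycle genes. miR-351 carries the seed of miR-125, a family known from lin-4 of the worm.

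The mature sequences below, from RefSeq on GRCm38.p6, are shown because the seed, in capitals, sets which other miRNA genes the members can be grouped with. The first 3 compare miR-322 and miR-503 with a miR-15 family miRNA, the next pair compares miR-351 with miR-125a, and the last 3 have their own seeds.
miR-322-5p: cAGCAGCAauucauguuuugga
miR-503-5p: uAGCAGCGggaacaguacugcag
miR-15a-5p: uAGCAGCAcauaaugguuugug
miR-351-5p: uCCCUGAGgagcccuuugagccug
miR-125a-5p: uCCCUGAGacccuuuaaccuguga
miR-542-3p: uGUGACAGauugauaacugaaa
miR-450a-5p: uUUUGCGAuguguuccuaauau
miR-450b-5p: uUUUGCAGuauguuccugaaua

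The miR-322-5p and miR-503-5p seeds differed at 1 of 7 positions. The seed of miR-322-5p was identical to that of miR-15a-5p, and the seed of miR-351-5p to that of miR-125a-5p. miR-450a-5p and miR-450b-5p differed at 2 seed positions and at 7 of 22 positions in all. The counts are per gene and do not separate the 5p arm from the 3p arm, so no value below belongs to 1 arm.

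All 6 members lie on the minus strand of chromosome X within about 6 kb (mm10). In the order of transcription they are Mir322 (53054255 to 53054349), Mir503 (53053984 to 53054054), Mir351 (53053255 to 53053353), Mir542 (53049403 to 53049487), Mir450a-2 (53048299 to 53048367) and Mir450b (53047997 to 53048078). The copy Mir450a-1 (53048154 to 53048244) lies between the last 2 and is the only other listed miRNA gene within 10 kb of a member. In GENCODE M21 none of the 7 hairpins overlaps another gene: the long noncoding RNA C430049B03Rik (53055046 to 53057190) ends upstream of Mir322, and the long noncoding RNA Gm28730 (53051194 to 53053159) lies between Mir351 and Mir542. RefSeq extends C430049B03Rik (53053112 to 53057190) over Mir322, Mir503 and Mir351, so 3 of the members lie inside its bounds. Whether these lie in its exons or introns was not analysed here.

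The libraries held 5988677 and 6675498 sense-strand counts of miRNA genes, and counts were scaled to these totals as CPM, the count at a common library total. A count of 0 allowed up to 0.501 CPM in replicate 1 and 0.449 CPM in replicate 2; such limits and all intervals cover counting error only. Markers of the labelled tissue were present: Mir143 of smooth muscle and 5 epithelial genes (Mir200c, Mir429, Mir375, Mir203 and Mir205) were at 5774 CPM or more in both libraries, and Mir145a, the other muscle gene, stood at 2921 and 2054 CPM. Nothing beyond the pool labels says how the replicates were made, so their spread may be in part technical. Reads matching several places, 25.5% and 27.0% of all reads, are in no gene count.

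Replicate 1 gave the cluster 2.77% of sense counts (95% Wilson interval 2.76 to 2.78) and replicate 2 gave it 2.70% (2.69 to 2.71), a mean of 2.74% ± 0.0466 (SD, n = 2). On the X chromosome, with 120 listed miRNA genes, the 6 members held 48.9% of sense counts in replicate 1 and 49.0% in replicate 2. The 6 genes therefore made up nearly as many X-linked counts as the other 114 together. Opposite-strand counts at the members came to 1, at Mir322 in replicate 1.

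Mir322, the first hairpin of the cluster, had 127884 counts in replicate 1 and 132826 in replicate 2. That is 21354 and 19898 CPM, a mean of 20626 ± 1030 CPM (SD, n = 2), and placed it as gene 11 and gene 13 by level in the 2 libraries. Of the cluster's counts Mir322 alone made up 77.1% (95% Wilson interval 76.9 to 77.3) in replicate 1 and 73.6% (73.4 to 73.8) in replicate 2.

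Mir351 came next. It had 28023 and 38758 counts, or 4679 and 5806 CPM, a mean of 5243 ± 797 CPM (SD, n = 2). Its share of the cluster was 16.9% (95% Wilson interval 16.7 to 17.1) in replicate 1 and 21.5% (21.3 to 21.7) in replicate 2. Mir351 was the 1 member with a larger share in replicate 2; the shares of the other 5 were smaller there.

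Mir542, whose miR-542-3p is known for repressing the survival gene Birc5, had 4721 and 4158 counts, or 788 and 623 CPM. Mir503, partner of miR-322 in cell cycle control, had 3850 and 3524 counts, or 643 and 528 CPM. The ranges of these 2 genes over the pools overlapped, although Mir542 exceeded Mir503 in each library, by 1.23-fold in replicate 1 and 1.18-fold in replicate 2. Every other neighbouring pair of members in the order of level had ranges that did not overlap.

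Mir450b and Mir450a-2 closed the order. Mir450b had 1236 and 1085 counts, or 206 and 163 CPM, and Mir450a-2 had 89 and 64 counts, or 14.9 and 9.59 CPM. Together the 4 members other than Mir322 and Mir351 held 5.97% (95% Wilson interval 5.86 to 6.08) of the cluster in replicate 1 and 4.89% (4.80 to 5.00) in replicate 2.

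**Figure D1:**
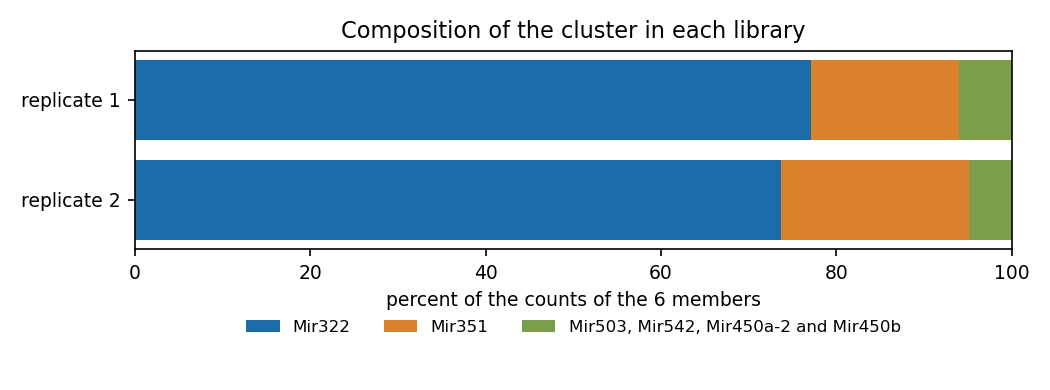
Share of the cluster's counts (x axis, percent of the summed sense counts of the 6 members) held by Mir322, Mir351 and the other 4 members in each of the 2 libraries (y axis). Mir322 fills 77.1% and 73.6% of the bars and Mir351 16.9% and 21.5%.

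By position, the 3 members nearest the 5′ end, Mir322, Mir503 and Mir351, made up 96.4% of the cluster's counts in replicate 1 and 97.1% in replicate 2. Levels did not fall steadily from the 5′ end, however. Mir503 begins 200 bases after Mir322 ends, and on the log2(CPM + 1) scale it lay 5.14 ± 0.13 below it (SD, n = 2), a 33.2-fold and a 37.7-fold difference in CPM. Mir351, 630 bases further on, lay 3.16 ± 0.42 above Mir503. Mir542, across the widest gap of 3767 bases, lay 2.89 ± 0.46 below Mir351, and Mir450a-2 lay 5.76 ± 0.17 below Mir542. These differences compare reads per gene and were not divided by hairpin length (69 to 99 bases), since a read of this size class can span a whole mature miRNA.

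**Figure D2:**
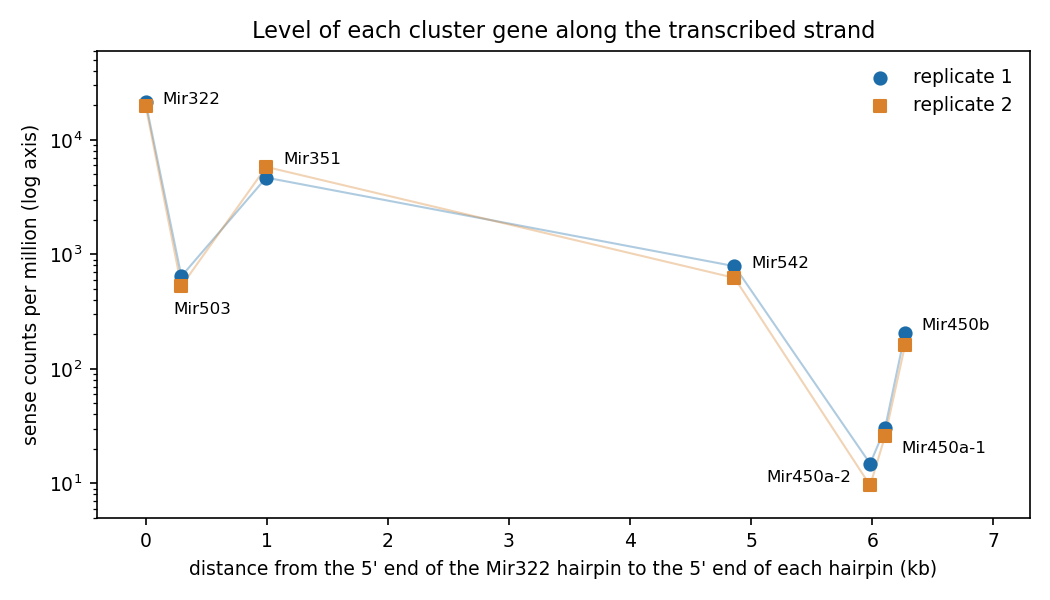
Sense CPM of each cluster gene (y axis, log axis) against the distance of its 5′ end from that of Mir322 in kb (x axis), with circles for replicate 1, squares for replicate 2 and lines joining neighbours. Mir503 sits below both of its neighbours, and Mir450a-2 is the lowest gene in both libraries.

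The low place of Mir450a-2 rests on a count that leaves out shared reads. Its hairpin and that of Mir450a-1 hold the same 22 bases of miR-450a-5p, shown in capitals in both hairpins, from RefSeq on GRCm38.p6.
Mir450a-2: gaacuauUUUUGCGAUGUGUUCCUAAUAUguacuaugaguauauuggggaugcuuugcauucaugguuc
Mir450a-1: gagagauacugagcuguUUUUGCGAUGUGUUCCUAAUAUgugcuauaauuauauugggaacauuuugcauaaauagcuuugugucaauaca

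A read made of only those bases matches both places. The 3p arms are not identical: miR-450a-2-3p and miR-450a-1-3p differ at 6 of 22 positions, and miR-450a-1-3p and miR-450b-3p at 2 of 22.
miR-450a-2-3p: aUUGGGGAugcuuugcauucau
miR-450a-1-3p: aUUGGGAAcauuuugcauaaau
miR-450b-3p: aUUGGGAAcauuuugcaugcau

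Mir450a-1 had 181 and 172 counts, or 30.2 and 25.8 CPM, so it too stood far below Mir450b. How many miR-450a-5p reads went uncounted was not tested. For the other 5 members RefSeq lists no second gene with the same mature sequence. With Mir450a-1 added the cluster's share of sense counts was still 2.74%. The span from the highest to the lowest member was 10.64 ± 0.34 on the log2(CPM + 1) scale (SD, n = 2), and 6.81 among the other 5 members, with Mir450a-1 not counted.

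Seen by seed, Mir322 had the most counts of its group. Of the 10 listed genes with the seed of miR-322-5p, 6 had counts. Mir15a stood at 2088 and 1839 CPM, Mir16-1 at 1229 and 1435, Mir15b at 599 and 601, Mir195a at 467 and 413, and Mir16-2 at 238 and 290. These genes carry the miR-15 and miR-16 miRNAs that restrain the cell cycle, and Mir195a belongs to the same family. Mir322 exceeded Mir15a by 10.2-fold in replicate 1 and 10.8-fold in replicate 2. Of the counts of the 10 genes it made up 82.2% (95% Wilson interval 82.0 to 82.4) in replicate 1 and 81.3% (81.1 to 81.5) in replicate 2. Mir16-1 and Mir16-2 give the same mature miR-16-5p, so their levels may be too low and the share of Mir322 too high. How many miR-16-5p reads went uncounted was not tested, so the lead of Mir322 holds for counted reads only. Mir497a, also of this family, was not found under this symbol among the listed genes. Its level is not known here, and the share of Mir322 leaves it out. No other listed gene had the exact seed of miR-503-5p.

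Mir351 was the highest gene of its seed group in both libraries, with Mir125a next. Of the 6 listed genes with the seed of miR-351-5p, 4 had counts: Mir351, Mir125a at 4415 and 3514 CPM, Mir125b-1 at 594 and 593 CPM and Mir125b-2 at 580 and 526 CPM. Mir351 exceeded Mir125a by 1.06-fold in replicate 1 and 1.65-fold in replicate 2. Its share of the 6 genes was 45.6% (95% Wilson interval 45.2 to 46.0) in replicate 1 and 55.6% (55.2 to 56.0) in replicate 2. Mir125b-1 and Mir125b-2 give the same mature miR-125b-5p, so their levels may be too low and the share of Mir351 too high.

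**Figure D3:**
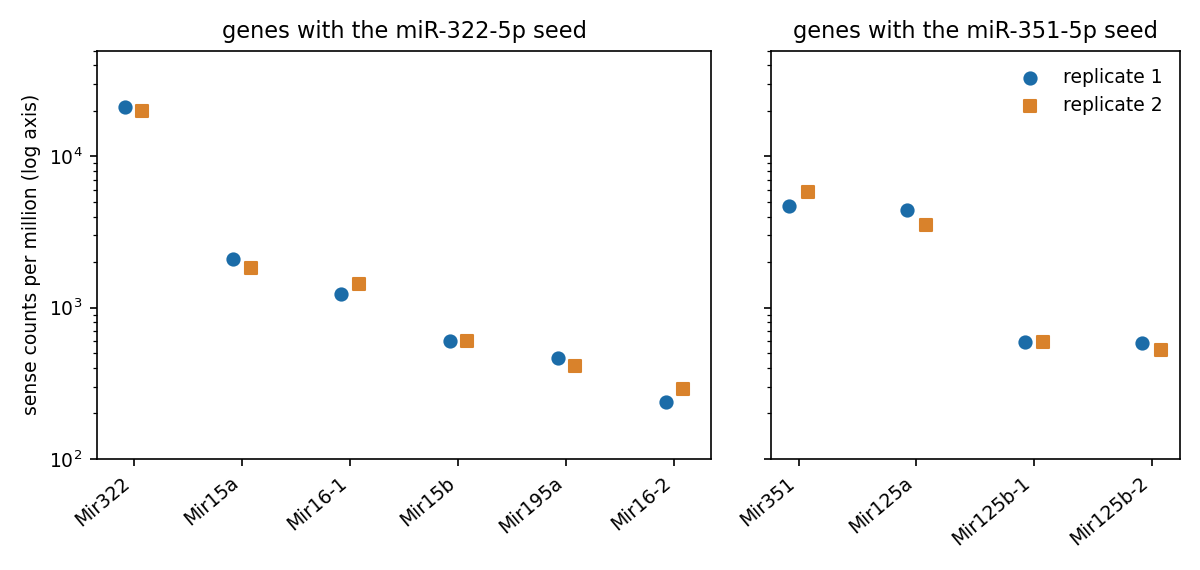
Sense CPM (y axis, log axis) of the genes with counts that carry the seed of miR-322-5p (left, 6 genes) or of miR-351-5p (right, 4 genes), with circles for replicate 1 and squares for replicate 2. Mir322 stands above the other genes of its seed in both libraries, while Mir351 and Mir125a lie close together in replicate 1.

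Between the pools, 5 of 6 members were lower and Mir351 was higher in replicate 2 with library totals as the scale. The log2 ratio of replicate 2 over replicate 1, with 1 CPM added, was 0.31 for Mir351 (95% exact interval 0.29 to 0.33). For Mir322 it was -0.10 (-0.11 to -0.09), for Mir503 -0.28 (-0.35 to -0.22), for Mir542 -0.34 (-0.40 to -0.28), for Mir450b -0.34 (-0.46 to -0.23) and for Mir450a-2 -0.58 (-1.12 to -0.15). The intervals came from the counts without 1 CPM added. The sign of Mir322 depended on the scaling: with edgeR's TMM factors its log2 ratio was 0.03 and with DESeq2 size factors 0.05. The DESeq2 size factors were 1 in both libraries, so the latter is the ratio of the unscaled counts. The signs of the other 5 members held under both scalings, which shift ratios by 0.13 and 0.16 before 1 CPM is added.

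No member passed the test between the libraries. The test was a two-sided exact conditional binomial test on counts, adjusted by the Benjamini-Hochberg method over all 466 genes with at least 10 summed counts, with a 2-fold limit. By it 0 of 6 members and 5.79% of all genes tested were called. Without the fold limit 6 of 6 members and 46.4% of all genes passed, since at this depth small differences exceed counting error; 6 of 6 also had an unadjusted p under 0.05. With TMM or DESeq2 size factors 5 of 6 passed, since Mir450a-2 did not. Shares of all genes were not computed under these scalings, nor for unadjusted p-values. edgeR's exact test, which sets each gene against the spread of the typical gene between the pools, called 0 of 6 members, with 0 of 6 at an unadjusted p under 0.05, and 4 genes in all. That spread came from the same 2 libraries, so a gene of typical ratio could hardly pass, and this count is no separate evidence. The median log2 ratio was -0.31 over the members and -0.11 over all genes tested, of which 63.3% were lower in replicate 2. A ratio as large as that of Mir351, in either direction, was found in 42.9% of genes tested, and one as large as that of Mir450a-2 in 17.6%.

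**Figure D4:**
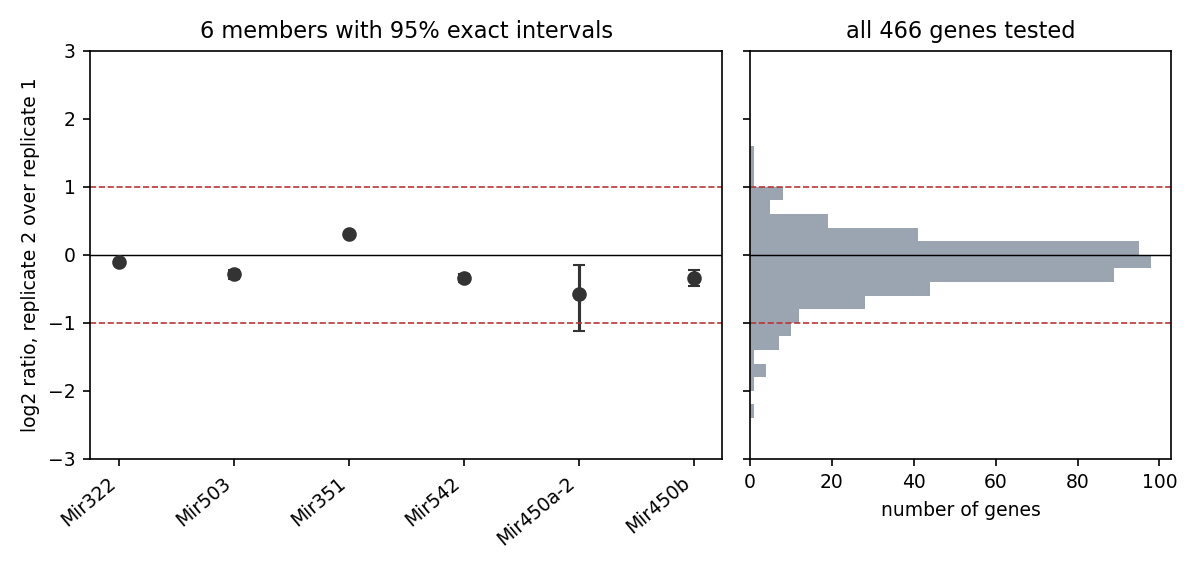
Log2 ratio of replicate 2 over replicate 1 (y axis, 1 CPM added) for the 6 members (left) and as a histogram of all 466 genes tested (right, x axis number of genes). The 95% exact intervals of the members came from the counts without 1 CPM added. Dashed lines mark 2-fold; Mir351 is the 1 member above 0, and all 6 points lie within the dashed lines.

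The members were also set against each other, on counts with nothing added, which needs no scaling. Of 15 member pairs, 9 had ratios that differed by Fisher's exact test with Benjamini-Hochberg adjustment over the 15. All 5 pairs with Mir351 were among them. The share of such pairs among all genes tested was not computed, and at this depth small differences exceed counting error. The log2 ratio of Mir351 exceeded that of Mir322 by 0.41 (95% exact interval 0.39 to 0.44), that of Mir503 by 0.60 (0.53 to 0.67), that of Mir542 by 0.65 (0.59 to 0.72), that of Mir450b by 0.66 (0.53 to 0.78) and that of Mir450a-2 by 0.94 (0.46 to 1.43). Mir322 exceeded Mir503 by 0.18 (0.12 to 0.25), Mir542 by 0.24 (0.18 to 0.30), Mir450b by 0.24 (0.12 to 0.36) and Mir450a-2 by 0.53 (0.05 to 1.02); the last passed narrowly, at an adjusted p = 0.0478 by Fisher's exact test. Among Mir503, Mir542, Mir450b and Mir450a-2 none of the 6 pairs passed. Mir542 and Mir450b differed by 0.00 (-0.13 to 0.14) and Mir503 and Mir542 by 0.06 (-0.03 to 0.15), while pairs with Mir450a-2 had intervals about 1 wide.

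The same tests cover counting error within these 2 libraries, not the spread between pools. edgeR put the coefficient of variation from pool to pool at 20.1%, which corresponds to an SD of 0.58 for the difference of 2 log2 ratios. The differences of Mir351 from the other members were 0.71 to 1.63 such SDs, and those of Mir322 from the 4 lower ones 0.31 to 0.92. Within its seed group, the log2 ratio of Mir351 exceeded that of Mir125a, which was -0.33, by 0.64 (95% exact interval 0.61 to 0.67). That interval too covers counting error only, and 0.64 was little above the SD of 0.58.

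Some markers of other tissues were called between the pools. Mir122 of liver (2445 and 757 CPM) and 3 of 3 red cell genes, Mir144, Mir451a and Mir486 (summed, 727 and 345 CPM), were called lower in replicate 2. The white cell gene Mir223 stood at 1247 and 1112 CPM and was not called. Mir142, the other white cell marker chosen, was not found under this symbol. The acinar pancreas genes Mir216a and Mir217 summed to 5.01 and 2.40 CPM, with Mir216a (11 and 2 counts) called lower and Mir217 not called. Of the skeletal muscle genes Mir206 stood at 106 and 192 CPM and Mir133b at 2.50 and 1.80 CPM, and neither was called. The neuronal genes Mir124a-1 and Mir9-2 had no counts. Mature sequences shared between genes were not analysed for these markers, and reads shared in this way are in no gene count. The absence of counts therefore does not show that neuronal miRNAs were absent. Of the stomach's own markers none was called, but Mir375 had a log2 ratio of 0.85, Mir203 of -0.62, Mir145a of -0.51 and Mir205 of -0.46, each larger in size than that of Mir351. Mir143 stood at 0.05, Mir200c at 0.05 and Mir429 at 0.04. The part of these tissues in the ratios of the members was not tested.

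Other growth-linked and X-linked clusters gave the members' levels a frame. The miR-17-92 cluster and the Mir106b cluster, both linked to proliferation and taken as a list of 9 genes, held 5.16% and 4.58% of sense counts, against 2.77% and 2.70% for the 6 members. None of the 9 genes was called between the pools, 8 were lower in replicate 2 and their median log2 ratio was -0.16. The other X-linked list, the Mir106a cluster with the endothelial pair Mir221 and Mir222, held 0.0912% and 0.0765% over 8 genes. None of the 8 was called, and 4 were lower. Mature sequences shared between genes were not analysed for these lists. Reads shared in this way are in no gene count, so the shares of the lists may be too low.

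Over 14 clusters with at least 3 genes on 1 strand, at most 10 kb apart and with at least 10 counts in both libraries, the first gene was the highest in 6, the cluster of Mir322 among them. By the span from highest to lowest gene it took place 3, at 10.64, after the Mir379 and the Mir17 clusters, against a median of 5.56. By the share of its highest gene, 75.3% with Mir450a-1 counted, it took place 2, against a median of 50.3%. By the spread of log2 ratios between the pools, 0.89 from Mir450a-2 to Mir351 with 1 CPM added, it took place 3, against a median of 0.67. These places are descriptions, and reads shared between genes were not analysed for the other clusters, whose spans they may affect. A span or a spread of ratios can only widen as genes are added. The clusters held 3 to 30 genes with enough counts, this one 7, and the places were not adjusted for this. Without Mir450a-2, and with Mir450a-1 as the lowest gene, the span was 9.48, still place 3. The spread of ratios rests on Mir450a-2, the gene with the fewest counts. Without Mir450a-2 the widest pair was Mir351 and Mir450b, which differed by 0.66 without 1 CPM added. With 1 CPM added, the Mir770 (0.87), Mir290a (0.75), Mir106a (0.72) and Mir341 (0.70) clusters had wider spreads than 0.66. The next narrower one was the Mir17 cluster (0.64). Place 3 by spread was therefore not kept without Mir450a-2.

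**Figure D5:**
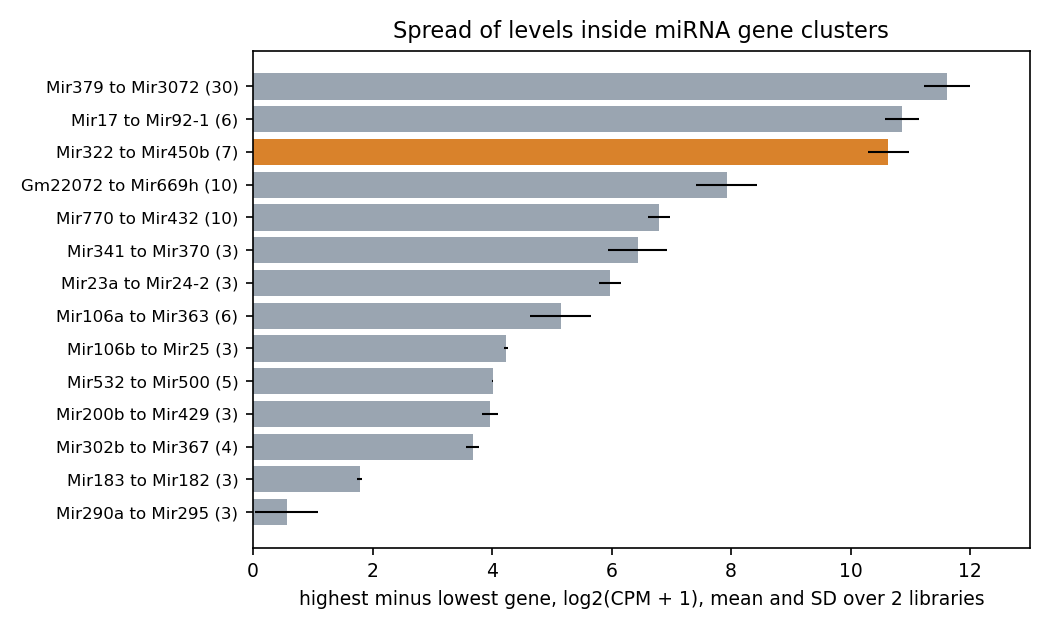
Difference between the highest and the lowest gene in log2(CPM + 1) (x axis, mean and SD over 2 libraries) for 14 miRNA gene clusters (y axis, first and last gene, with the number of genes of at least 10 counts in both libraries in brackets). The orange bar, Mir322 to Mir450b, has the widest span after those of the Mir379 and Mir17 clusters.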

How the data were processed

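The authors deposited 1 table of raw read counts for each library, made on mm10 with GENCODE M4 per the deposited description files. Aligner and counter: not given in the sources used here. Columns are unnamed; the second of 3 count columns was taken as the sense strand, since the first is the sum of the others and holds nearly the same counts. Lines naming no gene stayed out of totals and tests. Symbols and coordinates came from GENCODE M21 (1894 of 1973 identifiers matched) and sequences from RefSeq, matched by position; all 7 genes of the cluster had mature sequences. CPM, ratios with 1 CPM added, exact binomial tests over all genes with at least 10 summed counts and Fisher's exact tests between members were computed in Python 3.11.15 with scipy 1.17.1. TMM factors and the exact test came from edgeR 4.0.16 and size factors from DESeq2 1.42.0. The binomial and Fisher tests were tried on simulated counts with counting error only, and the edgeR step on counts with added spread. How the binomial and Fisher tests behave under the spread between pools was not tested. Named are the 6 members, the genes of the related lists and, for each member, the 2 genes nearest in level. The members and lists were chosen with earlier results of these data known. Alternatives covered scaling, pseudocount, count minimum, fold limit, strand, denominator and leaving out each replicate.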

Additional observations from a re-analysis of the deposited data

How the results depend on the processing

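Of 84 alternative values, 73 kept their direction and their side of the threshold or moved by less than the spread between pools. Some of the 73 could not have come out otherwise, so the tally overstates how stable the results are. The count minimum does not enter a gene's ratio, so ratios under other minimums repeat the main values. Each replicate lies closer to the mean of both than their SD, so leaving out either could not register as a move. The sign of the Mir322 ratio turned from -0.10 to 0.0268 with TMM, 0.0547 with DESeq2 size factors and 0.0268 with edgeR's exact test. These scales shift all ratios by a common amount before 1 CPM is added. In these libraries the shift was upward, by 0.13 with TMM and 0.16 with DESeq2 size factors. The members called between the libraries went from 0 to 6 without the fold limit, where 46.4% of all genes passed. They went to 5 without it under TMM or DESeq2 size factors, for which the share of all genes was not computed. The cluster's share of 2.74% became 2.65% with both strands counted and 1.43% with all reads as the denominator, both larger totals by construction. The span of 10.64 became 10.24 with a pseudocount of 5 CPM, 6.81 without Mir450a-2 and 9.48 with Mir450a-1 in its place. The alternatives with Mir450a-1, the span without Mir450a-2 and the joint change of fold limit and scaling were chosen after seeing the data. Without either replicate the share was 2.70% to 2.77%, the share of Mir322 in the cluster 73.6% to 77.1% and the span 10.39 to 10.88. Depth limits Mir450a-2.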

Other observations

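The genes nearest to each member in level in both libraries, by distance on the log2(CPM + 1) scale over 2 libraries, lay mostly on other chromosomes. Nearest to Mir322 were Mir17 at 22791 and 20435 CPM (distance 0.10) and Mir23b at 20289 and 21503 CPM (0.13). Nearest to Mir351 were Mir151 (0.17) and Mir30d (0.23). Mir503 had Mir300 (0.05) and the X-linked Mir374b (0.06), and Mir542 had Mir341 (0.10) and Mir674 (0.16). Mir450b had the X-linked Mir106a (0.11) and Mir496a (0.16), and Mir450a-2 had Mir378c (0.06) and Mir8112 (0.13). Of these 12 genes, Mir300, Mir341 and Mir496a lie on chromosome 12. With 2 libraries this distance is mainly one of level.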
